A study of Mus musculus with 106 samples.

Results

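Peroxisomal fatty acid oxidation was followed through 8 genes, Acox2, Acox3, Ehhadh, Abcd2, Abcd3, Pex11a, Hsd17b4 and Cat, out of the 21647 gene rows of the largest count table. They were chosen by name, as the rows with these symbols in the 4 raw count tables of the series, and all 8 had a row in each table. Each gene was read in 11 mouse tissues, and each group kept at 10 °C or 34 °C was compared with libraries of the same tissue and experiment from mice kept at room temperature (22 °C), except that in quadriceps the 22 °C libraries of both experiments were used together. Of 128 combinations of gene and comparison, 121 could be tested and 11 passed an adjusted p of 0.05, 4 higher and 7 lower, and these lay in 5 of the 16 comparisons, in which 0.385 to 28.9% of all genes tested were called.

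Peroxisomes shorten fatty acids that mitochondria handle poorly, among them very long chain and branched chain fatty acids, and they also trim the side chain of bile acid precursors. The substrates enter as CoA esters through transporters of the ABCD family, are oxidised by an acyl-CoA oxidase that releases hydrogen peroxide, pass through a bifunctional enzyme and a thiolase, and the peroxide is broken down by catalase. Brown adipose tissue and liver are rich in peroxisomes, many of the genes are targets of PPAR nuclear receptors, and peroxisomes of brown fat are known to multiply in the cold.

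Within this pathway Abcd2 and Abcd3 encode transporters of the peroxisomal membrane. Abcd2 carries very long chain and polyunsaturated acyl-CoA, and Abcd3, also known as PMP70, carries branched chain and bile acid substrates as well as dicarboxylic acids. Acox2 and Acox3 encode the branched chain acyl-CoA oxidases, of which Acox2 also acts on bile acid intermediates. Ehhadh encodes the L-bifunctional enzyme and Hsd17b4 the D-bifunctional enzyme. Cat encodes catalase, and Pex11a a membrane protein that takes part in the elongation and division of peroxisomes.

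The mice were wild type males, 8 weeks old at the start. Cold mice were brought down in steps of 5 days, the first at 18 °C and the next at 14 °C, before 2 weeks at 10 °C, warm mice lived at 34 °C for 4 weeks, and every control group stayed at 22 °C. In the cold experiment 3 libraries at each temperature were read for interscapular brown adipose tissue (iBAT), inguinal subcutaneous fat (ingSAT), perigonadal visceral fat (pgVAT), liver, ileum, spleen, brain and hypothalamus, 6 at each for bone marrow and 5 at each for spinal cord. In the warm experiment 3 libraries at each temperature were read for iBAT, liver, ileum and brain without hypothalamus. Quadriceps had 3 libraries at 10 °C, 3 at 34 °C and 6 at 22 °C, all of which served both comparisons. The warm experiment and the quadriceps are labelled C57BL/6J and 12 weeks of age, and the other cold samples C57BL/6 and 11 weeks. A library was a pool of 2 mice, except in bone marrow and spinal cord, where it was 1 mouse, and in warm iBAT, where the 3 libraries at 22 °C and 2 of those at 34 °C were single mice and 1 was a pool. Cold and warm mice came from different vendors. The warm, bone marrow, spinal cord and quadriceps libraries were sequenced at another site than the remaining cold ones. The study's methods give other equipment for the warm, bone marrow and spinal cord libraries, and do not name cold quadriceps there. Levels of bone marrow, spinal cord and quadriceps against the other tissues, and of iBAT between the experiments, are therefore set side by side. A difference between them cannot be told apart from site or equipment. The p-values measure the spread between these pools or mice.

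All values below are CPM, counts relative to the library total, scaled by TMM (edgeR's trimmed mean normalization) within each comparison, and log2 fold changes are treated over 22 °C. Where groups are said not to overlap, this only describes the libraries shown. The share of all genes whose groups do not overlap was not computed, so a lack of overlap without a call is not evidence of a change. Libraries held 4262403 to 62880248 counts. Lists of 5 marker genes for each cell type were detected in the labelled tissues, apart from 1 erythroid marker that was at 0 in bone marrow, and a few libraries stood apart. The 22 °C brain library of replicate 2 carried a summed level of 63290 CPM of the hepatocyte markers Alb, Apoa1, Ttr, Serpina1a and Cyp2e1, against 736 to 1102 CPM in the other 5 brain libraries. In pgVAT the epididymis markers summed to 17990 and 22450 CPM in replicates 1 and 3 at 10 °C and to 2.79 to 2622 CPM in the other 4 libraries. Skeletal muscle markers in warm iBAT summed to 2.77 and 6.98 CPM in replicates 1 and 3 at 22 °C, to 3918 CPM in replicate 2, and to 828 to 3067 CPM at 34 °C. The part of these libraries in each result below was examined only by leaving out 1 library at a time. No fit left out all iBAT libraries with muscle markers, or both pgVAT libraries with high epididymis markers. These fits therefore cannot decide the part of such markers.

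Gene positions are given on GRCm38, which is mm10. Acox2 (ENSMUSG00000021751) spans chr14:8225511-8259353, Acox3 (ENSMUSG00000029098) chr5:35583040-35615352, Ehhadh (ENSMUSG00000022853) chr16:21761287-21787807 and Abcd2 (ENSMUSG00000055782) chr15:91145871-91191799. Abcd3 (ENSMUSG00000028127) spans chr3:121758774-121815302, Pex11a (ENSMUSG00000030545) chr7:79735957-79743131 and Cat (ENSMUSG00000027187) chr2:103453849-103485160, and the position of Hsd17b4 (ENSMUSG00000024507) is not given here. Acox3 and Pex11a overlap an annotated antisense transcript each, Ehhadh a small nuclear RNA gene, Abcd3 a pair of unverified transcripts and Hsd17b4 a processed pseudogene. Whether counting used strand is not given in the sources used here, so reads of these overlapping genes could not be separated from those of the members.

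The 250 bases before the transcription start are shown for Ehhadh, Abcd3 and Pex11a, and 243 for Cat, because these 4 genes fell together in iBAT at 34 °C, as given further on. RefSeq promoter windows (GRCm38.p6) matched 6 of the 8 genes, and Abcd2 and Hsd17b4 had none in the table used. Each sequence runs 5′ to 3′ on the strand of its gene, the minus strand for all 4, and capitals mark every match on either strand to AGGTCA (the hexamer bound by nuclear receptors), GGGCGG (GC box), CCAAT or TATAAA.
Ehhadh, chr16:21787835-21788084: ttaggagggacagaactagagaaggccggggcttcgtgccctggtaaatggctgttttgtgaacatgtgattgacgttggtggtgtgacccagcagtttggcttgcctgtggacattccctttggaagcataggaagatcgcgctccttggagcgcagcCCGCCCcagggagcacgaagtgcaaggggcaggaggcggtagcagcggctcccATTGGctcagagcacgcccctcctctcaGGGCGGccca
Abcd3, chr3:121815303-121815552: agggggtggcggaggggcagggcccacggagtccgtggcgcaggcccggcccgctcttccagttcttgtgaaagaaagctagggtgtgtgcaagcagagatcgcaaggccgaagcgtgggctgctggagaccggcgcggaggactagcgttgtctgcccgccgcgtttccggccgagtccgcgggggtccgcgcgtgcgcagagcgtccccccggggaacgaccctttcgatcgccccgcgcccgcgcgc
Pex11a, chr7:79743132-79743381: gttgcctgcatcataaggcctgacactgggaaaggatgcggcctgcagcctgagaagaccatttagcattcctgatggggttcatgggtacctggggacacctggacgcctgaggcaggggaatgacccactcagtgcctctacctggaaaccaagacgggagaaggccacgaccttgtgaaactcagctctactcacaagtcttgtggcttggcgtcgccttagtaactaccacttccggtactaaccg
Cat, chr2:103485161-103485403: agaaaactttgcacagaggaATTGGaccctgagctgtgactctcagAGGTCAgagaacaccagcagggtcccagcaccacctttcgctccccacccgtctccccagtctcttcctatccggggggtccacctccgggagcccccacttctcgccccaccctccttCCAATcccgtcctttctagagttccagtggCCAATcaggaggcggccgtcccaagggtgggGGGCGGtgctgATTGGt
No searched motif was common to all 4 windows. Ehhadh held GGGCGG at 10 bases before its start and, on the opposite strand, GGGCGG at 91 bases and CCAAT at 38 bases. Cat held AGGTCA at 204 bases, GGGCGG at 24 bases and CCAAT at 4 positions. Of these 4, those at 85 and 55 bases were on the strand of the gene and those at 230 and 13 bases on the opposite strand. Abcd3 and Pex11a held none of the 4 motifs. Among all 32851 windows of 250 bases, AGGTCA occurred in 14%, GGGCGG in 32.7%, CCAAT in 33.8% and TATAAA in 12.4%, and a direct repeat of AGGTCA spaced by 1 base, the arrangement bound by PPAR with RXR, in 0.0335%. That repeat was not found in any member's window, which says only that these letters are absent there, and the Acox2 window lay inside annotated exons and was not searched.

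At 22 °C in the cold experiment the 8 genes differed in how far they were concentrated in one tissue. The levels here are medians over libraries in CPM per kb of exon, and the brain library with hepatocyte markers is left out of them. Brain thus rests on 2 libraries, which were scaled together with the one left out. Scaling was within each tissue's own comparison and not across tissues, so narrow gaps or overlaps between tissues cannot be resolved. Liver had the highest level of Cat (1330 CPM per kb), Hsd17b4 (172), Ehhadh (163), Abcd3 (155) and Acox2 (76.4), and in each case no liver library overlapped the tissue next in order. Acox2 was the steepest of these, at 3.19 CPM per kb in ileum, 0.686 in iBAT and 0.28 in pgVAT and 0.179 or less in every other tissue. It stood too low to be tested in spleen, hypothalamus, bone marrow, spinal cord, quadriceps and the brain of the warm experiment.

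iBAT held the second place for Ehhadh (67.1 CPM per kb), Abcd3 (76.6) and Hsd17b4 (119). For Ehhadh the ranges of iBAT, ingSAT (40.9), pgVAT (32.1) and ileum (25.1) ran into each other, and from there the level dropped to 3.83 in quadriceps and 1.81 in brain. Abcd3 followed with 46.9 in ileum and lay lowest in bone marrow (5.74), and Hsd17b4 was the more even of the bifunctional enzymes, from 172 in liver to 19 in bone marrow, where quadriceps (19.4) overlapped it. For Cat the 3 fat depots overlapped each other at 310 to 379 CPM per kb, and bone marrow (116) overlapped spleen (114). The lowest Cat levels were those of brain (24.8) and hypothalamus (21.9). Their ranges were apart by a narrow margin, with 24.2 as the lowest brain value and 23.7 as the highest of hypothalamus.

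Abcd2 was highest in pgVAT (201 CPM per kb) and ingSAT (162), which overlapped, and reached 30.3 in iBAT. It was lowest in liver (1.18) and ileum (0.971), which stood apart by a narrow margin. Spinal cord, bone marrow, brain, quadriceps and hypothalamus lay between 13 and 7.51, each overlapping the next. Pex11a was highest in iBAT (20.2) and liver (18.3), which overlapped, with ingSAT (15.4) and pgVAT (14.2) after them and bone marrow last at 0.297. Acox3 was the flattest, with 11 in spleen and 2.47 in quadriceps, a ratio of 4.44 between the highest and the lowest median, and the 7 highest tissues formed an unbroken chain of overlapping ranges.

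**Figure D1:**
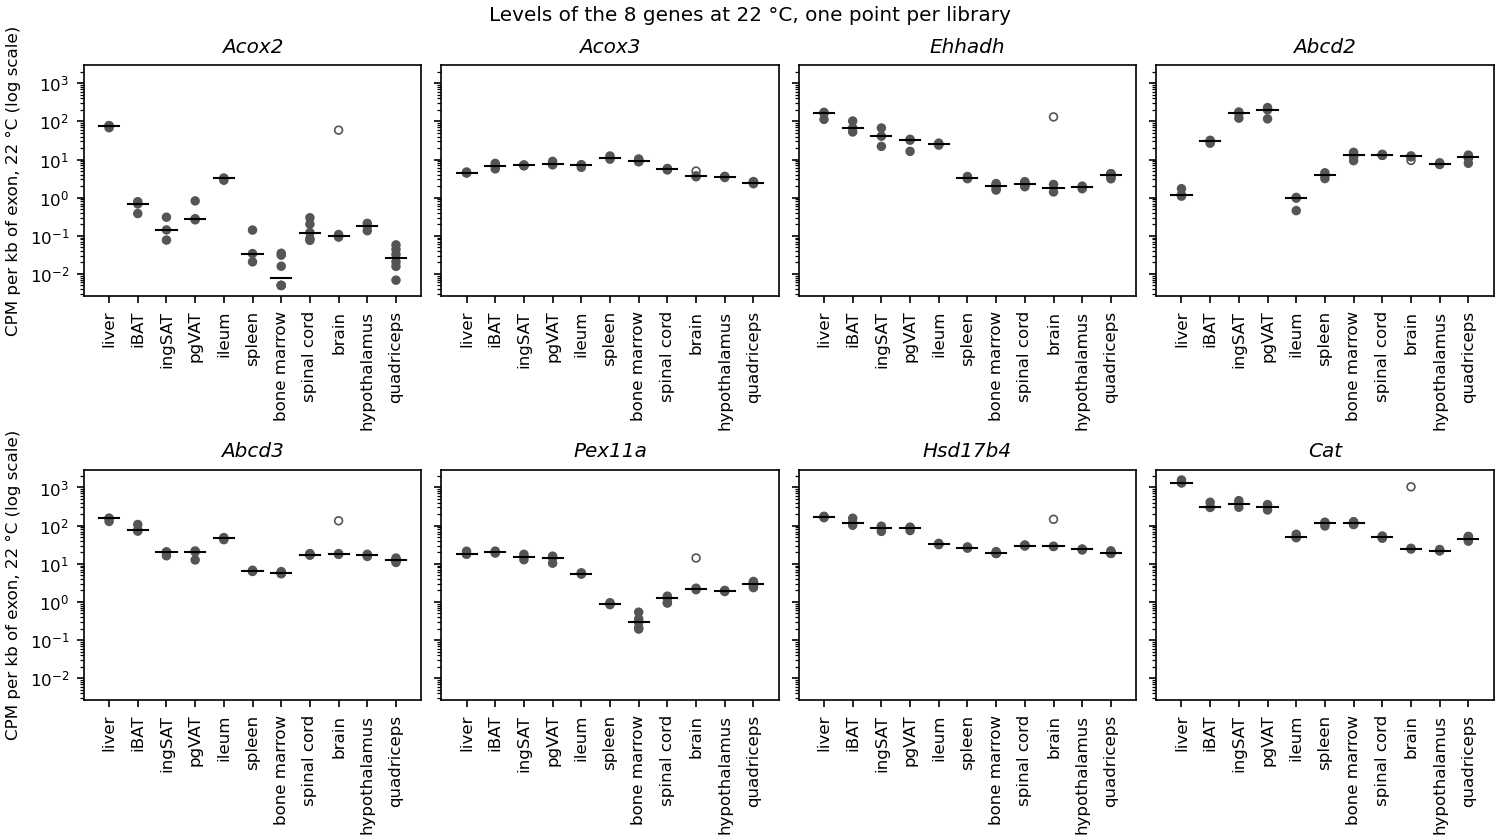
Level of each gene at 22 °C in the cold experiment, in CPM per kb of exon on a log axis, with one point per library, a bar at the median of each tissue and an open circle for the brain library of replicate 2, which the bar leaves out (libraries with no count are at the lowest position used). The panels of Cat, Hsd17b4, Ehhadh, Abcd3 and Acox2 peak in liver, Abcd2 peaks in pgVAT and ingSAT, Pex11a is level between iBAT and liver, and Acox3 is nearly flat.

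The controls of the warm experiment gave the same leading tissue for Acox2 (liver, 53.8 CPM per kb), Cat (liver, 1230) and Pex11a (iBAT, 10.1). Ehhadh (86.2 in liver and 84.2 in iBAT), Abcd3 (97.8 and 95.2) and Hsd17b4 (125 and 129) overlapped between liver and iBAT there. In iBAT, mean Abcd2 was 176 CPM in the cold experiment's controls and 84.5 CPM in the warm one's, and mean Pex11a 64.4 and 31.8 CPM. Site, vendor, kit and pooling changed together with the experiment and cannot be told apart.

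At 34 °C, 5 of the 8 genes were lower in iBAT and none higher, the largest number called in the 16 comparisons. The background was high, since 28.9% of the 12331 genes tested were called in this comparison. Ehhadh, the L-bifunctional enzyme, moved most. Its libraries read 245, 251 and 363 CPM at 22 °C and 45.5, 45.4 and 26.8 CPM at 34 °C, so that the groups were far apart. The mean fell from 286 ± 66.7 (SD, n = 3) to 39.2 ± 10.8 CPM (n = 3), a log2 fold change of -2.85 with SE 0.25 and adjusted p = 0.00107. In bulk tissue, fewer cells of a type and less RNA per cell cannot be told apart.

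The transporter Abcd3 read 734, 582 and 628 CPM at 22 °C and 206, 213 and 278 CPM at 34 °C. Every warm library lay below every control, and the mean fell from 648 ± 77.7 to 232 ± 39.4 CPM (log2 fold change -1.47, SE 0.15, adjusted p = 0.00152). The other transporter, Abcd2, overlapped between the groups, with 64.4, 97.0 and 92.1 CPM against 80.2, 86.8 and 63.7 CPM (log2 fold change -0.12, 95% interval -0.54 to 0.30).

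Catalase read 960, 942 and 915 CPM at 22 °C and 498, 592 and 562 CPM at 34 °C. It fell from 939 ± 22.7 to 551 ± 47.8 CPM (log2 fold change -0.76, SE 0.10, adjusted p = 0.00309). Hsd17b4, the D-bifunctional enzyme, read 438, 440 and 474 CPM at 22 °C against 288, 277 and 344 CPM at 34 °C. Its groups were also apart, and the mean fell from 451 ± 20 to 303 ± 36.1 CPM (log2 fold change -0.56, SE 0.11, adjusted p = 0.0109), a smaller step than that of Ehhadh. Pex11a fell from 31.8 ± 3.12 to 23.4 ± 0.341 CPM (34.6, 28.4 and 32.2 against 23.1, 23.7 and 23.5 CPM), a log2 fold change of -0.42 with SE 0.09 and adjusted p = 0.0159. The oxidases did not pass, Acox2 at -0.53 (interval -1.80 to 0.73) and Acox3 at -0.11 (interval -0.32 to 0.09).

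The calls for Ehhadh, Abcd3 and Cat held with each library left out, and so did that for Hsd17b4, while Pex11a missed the threshold without replicate 3 at 22 °C (adjusted p = 0.0540). With scaling by library size alone the median log2 fold change of all genes moved from 0.02 to 0.30, and Hsd17b4 (-0.29, adjusted p = 0.0752) and Pex11a (-0.15, adjusted p = 0.277) then no longer passed, though both stayed negative. The 5 brown adipocyte markers Ucp1, Cidea, Elovl3, Dio2 and Otop1 moved with these genes, 4 of 5 lower, with a summed level of 9329 to 12530 CPM at 22 °C and 4080 to 5451 CPM at 34 °C. The general adipocyte markers summed to 13810 to 16510 CPM and 11070 to 13630 CPM, with 1 of 5 higher and 1 lower, and the muscle markers to 2.77 to 3918 CPM and 828 to 3067 CPM. Hepatocyte markers summed to 104 to 126 CPM at 22 °C and 178 to 415 CPM at 34 °C, with 1 called higher. Their part in the result was not tested.

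For the rest of the peroxisomal pathway in warm iBAT the background is 15.4% of all genes lower and 13.5% higher. Of 22 tested genes of a list of other peroxisomal beta-oxidation genes, 15 were lower and 1 higher, with a median log2 fold change of -0.67 against 0.02 for all genes tested. The largest decreases were those of the acyl-CoA thioesterase Acot4 (13.7 to 2.02 CPM, log2 fold change -2.74), the thiolase Acaa1b (102 to 20 CPM, -2.35) and the peroxisomal cofactor carrier Slc25a17 (118 to 44.6 CPM, -1.39), and the enoyl-CoA isomerase Eci3 was the 1 that rose (18.2 to 24 CPM, 0.41). Of 15 peroxins, the proteins that build peroxisomes and import their enzymes, 9 were lower and none higher, led by Pex16 (141 to 53.1 CPM, -1.40), Pex14 (126 to 58.3 CPM, -1.10) and Pex5 (209 to 104 CPM, -1.0). Alpha-oxidation and ether lipid genes were lower in 2 of 6, Hacl1 (-0.81) and Agps (-0.30). Other peroxisomal enzymes and membrane proteins were lower in 5 of 12, among them Ephx2 (-0.77), Dhrs4 (-0.70) and Tysnd1 (-0.61).

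Among 8 regulators of the pathway in warm iBAT, Ppargc1a (79.5 to 28.9 CPM, -1.45), Rxrg (-0.67) and Rxra (-0.32) fell and Ppara rose (516 to 657 CPM, 0.36). Mitochondrial beta-oxidation genes fell in 8 of 18, with the carnitine carrier Slc25a20 (831 to 389 CPM, -1.08), Cpt2 (733 to 345 CPM, -1.07) and Etfdh (-0.91) first and a median of -0.29. The share of peroxisomal beta-oxidation genes and that of mitochondrial ones were not compared by a test.

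At 10 °C, iBAT showed 2 changes of the 8, in opposite directions, where 11.3% of 12791 tested genes were called. Acox2 read 2.54, 2.90 and 1.42 CPM at 22 °C and 5.99, 6.90 and 6.88 CPM at 10 °C, every cold library above every control. It rose from 2.29 ± 0.773 to 6.59 ± 0.520 CPM (n = 3 and 3, log2 fold change 1.54, SE 0.27, adjusted p = 0.00919), and remained a low level for this tissue. Abcd2 read 159, 180 and 190 CPM at 22 °C and 92.9, 80.0 and 112 CPM at 10 °C, again with no overlap. It fell from 176 ± 15.6 to 95.0 ± 16.1 CPM (log2 fold change -0.90, SE 0.14, adjusted p = 0.00619). Both calls held with each library left out.

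None of the 5 genes that fell in iBAT at 34 °C passed at 10 °C. Pex11a came to 68.3, 64.2 and 60.6 CPM at 22 °C and 75.7, 73.3 and 76.4 CPM at 10 °C, groups that did not overlap, with log2 fold change 0.21 and adjusted p = 0.211. Ehhadh spread widely at 10 °C, with 95.9, 327 and 146 CPM against 157, 200 and 305 CPM at 22 °C. Its log2 fold change of -0.23 had an interval of -1.15 to 0.69, which leaves room for a change in either direction. Hsd17b4 stood at 0.43 (interval 0.02 to 0.84, adjusted p = 0.165, and 0.0385 without replicate 3 at 22 °C), Abcd3 at 0.09 (-0.33 to 0.50), Cat at 0.17 (-0.21 to 0.55) and Acox3 at 0.18 (-0.17 to 0.52).

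Other cell markers moved in cold iBAT as well. The brown adipocyte markers summed to 6950 to 12000 CPM at 22 °C and 12650 to 16680 CPM at 10 °C, with 1 of 5 called higher, and the muscle markers to 5443 to 7226 CPM and 2037 to 4418 CPM, with 1 of 5 called lower. Hepatocyte markers were lower in 3 of 4 tested, at a sum of 167 to 373 CPM against 119 to 176 CPM. Epididymis markers were at 0 in the 3 controls and at 3.01 to 33.2 CPM at 10 °C. Their part in the result was not tested. Scaling by library size alone moved the median log2 fold change of all genes from -0.02 to -0.18, with the same 2 genes called.

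**Figure D2:**
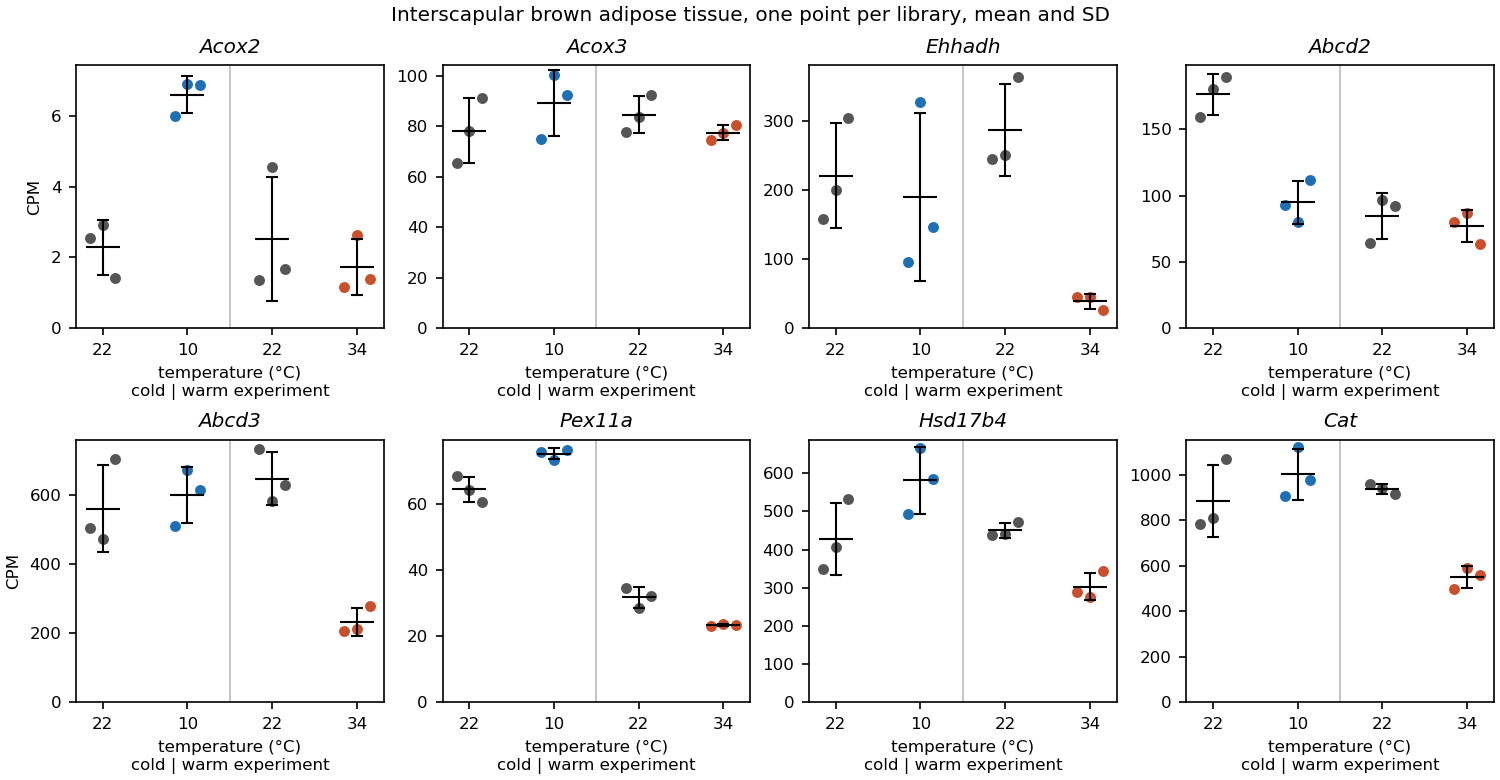
CPM of the 8 genes in iBAT, with one point per library, a bar at the mean and whiskers of 1 SD, for 22 °C and 10 °C of the cold experiment and, right of the grey line, 22 °C and 34 °C of the warm experiment. Ehhadh, Abcd3, Pex11a, Hsd17b4 and Cat lie lower at 34 °C with no overlap, while at 10 °C Acox2 lies higher and Abcd2 lower.

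For the rest of the pathway in cold iBAT the background is the same 11.3% of all genes called, with 6.22% higher and 5.07% lower. Of 22 other peroxisomal beta-oxidation genes 2 were higher, the CoA hydrolases Nudt19 (76.0 to 126 CPM, log2 fold change 0.72) and Nudt7 (185 to 304 CPM, 0.70), and Eci3 was lower (10.0 to 5.87 CPM, -0.78). The median over the list was 0.13 against -0.02 for all genes. Pex16 was the 1 peroxin of 16 that passed (87.7 to 132 CPM, 0.58), and Pxmp2, a channel of the peroxisomal membrane, was lower (35.1 to 21.9 CPM, -0.70). Ppara (401 to 170 CPM, -1.25) and Ppargc1b (133 to 86.9 CPM, -0.63) were lower among the 8 regulators. None of 18 mitochondrial beta-oxidation genes and none of 7 alpha-oxidation and ether lipid genes passed edgeR's test, with 3 and 0 of them at an unadjusted p under 0.05. Of all 12791 genes in that test, 3567 had an unadjusted p under 0.05.

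In ingSAT at 10 °C, where 7.51% of 13982 tested genes were called, Abcd3 was the 1 gene of the 8 that passed. It read 134, 134 and 107 CPM at 22 °C and 251, 241 and 257 CPM at 10 °C, with a clear gap between the groups. The mean rose from 125 ± 15.7 to 250 ± 8.11 CPM (log2 fold change 1.0, SE 0.13, adjusted p = 0.00966), and without replicate 3 at 10 °C the adjusted p was 0.0805. Acox2 came to 0.286, 1.14 and 0.529 CPM at 22 °C and 3.06, 2.16 and 2.65 CPM at 10 °C. These groups did not overlap either, but the level was low and the adjusted p was 0.0590 (log2 fold change 1.97, interval 0.79 to 3.16), against 0.0122 with DESeq2 and 0.00565 with edgeR's exact test. The 22 °C mean of Acox2, 0.650 CPM, was alone under the limit for testing (average log2 CPM above 0), which was met with the 10 °C libraries. Pex11a came to 48.7 ± 7.82 and 70.8 ± 10.1 CPM, again without overlap (log2 fold change 0.55, adjusted p = 0.0886). The remaining 5 genes lay between -0.26 for Abcd2, whose libraries read 723 to 1047 CPM at 22 °C and 615 to 858 CPM at 10 °C, and 0.24 for Hsd17b4.

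The brown adipocyte markers rose in 5 of 5 in the same ingSAT libraries, from a sum of 68.1 to 129 CPM at 22 °C to 1896 to 2438 CPM at 10 °C, while hepatocyte markers summed to 1631 to 4449 CPM and 1008 to 1328 CPM. Their part in the result was not tested. In ingSAT 4.61% of all genes tested were higher at 10 °C. Of 23 other peroxisomal beta-oxidation genes 6 were higher and none lower, with a median of 0.46 against -0.01 for all genes, led by the very long chain acyl-CoA synthetase Slc27a2 (2.59 to 23.5 CPM, 3.19), Acoxl (0.193 to 1.69 CPM, 3.03) and Acaa1b (10.7 to 47.7 CPM, 2.15). Acoxl was near the floor. Its 22 °C mean alone was under the limit for testing (average log2 CPM above 0), which was met with the 10 °C libraries, so its call carries little weight. 1 peroxin of 16, Pex13 (0.51), and 1 of 12 other peroxisomal genes, the D-aspartate oxidase Ddo (1.28), were higher, and none of 7 alpha-oxidation and ether lipid genes passed (2 at an unadjusted p under 0.05). An unadjusted p under 0.05 was found for 3911 of all 13982 genes by edgeR's test. Ppargc1b (1.08), Ppargc1a (0.97) and Ppara (0.84) rose among the 8 regulators.

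Mitochondrial beta-oxidation genes of ingSAT rose in 13 of 18, with a median of 1.0. Cpt1b (1.28 to 10.1 CPM, 2.97), Slc25a20 (91.3 to 312 CPM, 1.78) and Hadhb (68.9 to 188 CPM, 1.45) were highest in change, and Cpt1a, the carnitine palmitoyltransferase of liver, fell (89.6 to 39.0 CPM, -1.19). Beside these, Ehhadh (-0.20, interval -1.04 to 0.64) and Cat (0.05, interval -0.46 to 0.56) stayed within wide intervals around 0.

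In pgVAT at 10 °C none of the 8 genes passed, where 0% of 14856 genes were called by edgeR's quasi-likelihood test, 1207 genes had an unadjusted p under 0.05, and DESeq2 called 157 and the exact test 37. Acox3 differed most. Its libraries read 85.5, 83.8 and 103 CPM at 22 °C and 324, 66.2 and 475 CPM at 10 °C, so that replicates 1 and 3 at 10 °C stood far above all others and replicate 2 lay below every control (log2 fold change 1.61, interval 0.10 to 3.13, adjusted p = 0.593). The same pair carried the 17990 and 22450 CPM of epididymis markers, and replicate 2 had 2.79 CPM. Without replicate 2 Acox3 passed, with adjusted p = 0.00903. The part of the epididymis in this value was not tested. In replicate 2 Ehhadh (198 CPM), Hsd17b4 (443 CPM), Cat (1251 CPM) and Pex11a (84.0 CPM) were above all other pgVAT libraries. So were Abcd3 (193 CPM) and, by a small margin, Abcd2 (1379 CPM, with 1365 CPM in a control). Abcd3 came to 143, 135 and 82.9 CPM at 22 °C and 148, 193 and 158 CPM at 10 °C, groups that did not overlap (log2 fold change 0.44, adjusted p = 0.650).

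In liver, the tissue with the highest levels, the cold left all 8 genes uncalled, where 0% of 12026 genes were called by the quasi-likelihood test, 2233 had an unadjusted p under 0.05, and DESeq2 called 530 and the exact test 455, none of the 8 among them. Acox2 read 252, 283 and 287 CPM at 22 °C and 320, 307 and 348 CPM at 10 °C, groups without overlap (log2 fold change 0.24, interval 0.05 to 0.43, adjusted p = 0.188). Pex11a came to 67.8, 58.1 and 56.5 CPM against 50, 56.0 and 55.5 CPM (log2 fold change -0.18, adjusted p = 0.310). The hepatocyte markers summed to 60910 to 67310 CPM at 22 °C and 85060 to 88370 CPM at 10 °C. Cat (0.01, interval -0.21 to 0.23) and Hsd17b4 (0.07, interval -0.10 to 0.25) had narrow intervals around 0, and Ehhadh one of -0.43 to 0.41.

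At 34 °C the liver gave 1 call, in Abcd2, against a background of 0.385% of 11179 genes. Abcd2 read 12.4, 6.87 and 9.98 CPM at 22 °C and 23.4, 21.4 and 21.4 CPM at 34 °C, every warm library above every control. It rose from 9.74 ± 2.76 to 22.1 ± 1.18 CPM (log2 fold change 1.18, SE 0.19, adjusted p = 0.0482), a call that held in 1 of 6 fits with a library left out (adjusted p from 0.0345 to 0.206). With library size scaling the adjusted p was 0.0513. The adipocyte markers of these liver libraries summed to 5.84 to 7.78 CPM at 22 °C and 4.41 to 5.57 CPM at 34 °C, with 2 of 5 at 0 in every library, and their part was not tested. Abcd3 came to 708, 608 and 645 CPM at 22 °C and 503, 571 and 509 CPM at 34 °C, groups that did not overlap but did not pass (log2 fold change -0.30, interval -0.52 to -0.09, adjusted p = 0.266), and the same held for Acox3 (-0.27, adjusted p = 0.399) and Hsd17b4 (-0.16, adjusted p = 0.538). Ehhadh, which fell in iBAT, had log2 fold change 0.05 here, with an interval of -0.37 to 0.46.

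In ileum none of the 8 passed at either temperature. At 10 °C, with 0.0639% of 14081 genes called, Acox2 came to 11.5 ± 0.799 and 14.6 ± 2.37 CPM, groups without overlap (log2 fold change 0.34, adjusted p = 0.282). The enterocyte markers summed to 4724 to 5269 CPM at 22 °C and 8592 to 8866 CPM at 10 °C. At 34 °C, 0% of 13023 genes were called by the quasi-likelihood test, 1011 had an unadjusted p under 0.05, and DESeq2 called 24 and the exact test 5, none of the 8 among them. Ehhadh read 89.4, 104 and 92.7 CPM at 22 °C and 105, 120 and 110 CPM at 34 °C, the reverse of its direction in iBAT (log2 fold change 0.24, interval 0.02 to 0.47, adjusted p = 0.594), and Acox3 came to 84.1 to 86.8 CPM against 67.4 to 78.1 CPM (log2 fold change -0.21, adjusted p = 0.594). Enterocyte markers there summed to 7113 to 9921 CPM at 22 °C and 7155, 21390 and 13500 CPM in replicates 1 to 3 at 34 °C. Hsd17b4 followed the same order of warm libraries with 177, 323 and 252 CPM (log2 fold change 0.55, adjusted p = 0.594). Their part in these values was not tested.

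In bone marrow at 10 °C, where single mice gave 6 libraries a group and 19% of 12525 genes were called, 2 of 7 tested genes passed, with small changes. Acox3 ranged from 101 to 119 CPM with a median of 106 at 22 °C and from 80.0 to 91.1 CPM with a median of 84.1 at 10 °C, without overlap. It fell from 108 ± 7.05 to 85.0 ± 4.84 CPM (n = 6 and 6, log2 fold change -0.34, SE 0.05, adjusted p = 0.00296), and the call held with each of the 12 libraries left out. Cat ranged from 280 to 332 CPM with a median of 303 at 22 °C and from 327 to 401 CPM with a median of 337 at 10 °C, so that the groups overlapped narrowly. It rose from 303 ± 20.8 to 352 ± 31 CPM (log2 fold change 0.22, SE 0.06, adjusted p = 0.0222), but not when replicate 1 or 2 at 10 °C was left out, with 0.0527 for the latter and a value just above 0.05 for the former. Abcd2 (-0.26, adjusted p = 0.0705) and Ehhadh (0.31, adjusted p = 0.0768) lay just outside the threshold, with 62.7 and 7.41 CPM on average at 10 °C.

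The cell markers of bone marrow shifted between the same groups. Neutrophil precursor markers summed to 8771 to 11870 CPM at 22 °C and 8173 to 8617 CPM at 10 °C, with 3 of 5 lower. Erythroid markers summed to 3631 to 5030 CPM and 4865 to 6498 CPM, with 3 of 4 tested higher, and B cell markers to 477 to 661 CPM and 660 to 778 CPM, with 4 of 5 higher. Catalase is abundant in red cells, and the part of these shifts in the Acox3 and Cat values was not tested. Of the surrounding genes, 4 of 7 alpha-oxidation and ether lipid genes were lower, among them Far2 (-0.31), Aldh3a2 (-0.25) and Agps (-0.24), where 11.6% of all genes were lower and 7.33% higher. Prdx5 (391 to 305 CPM, -0.36), Idh1 (-0.23) and Lonp2 (-0.13) were lower and Ephx2 higher (0.56) among 12 other peroxisomal genes, Pparg was higher (0.52) among 5 regulators, 1 of 17 mitochondrial genes was lower (Echs1, -0.16), and none of 15 peroxins passed or had an unadjusted p under 0.05. Over all 12525 genes tested, 4139 had an unadjusted p under 0.05 by edgeR's test.

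**Figure D3:**
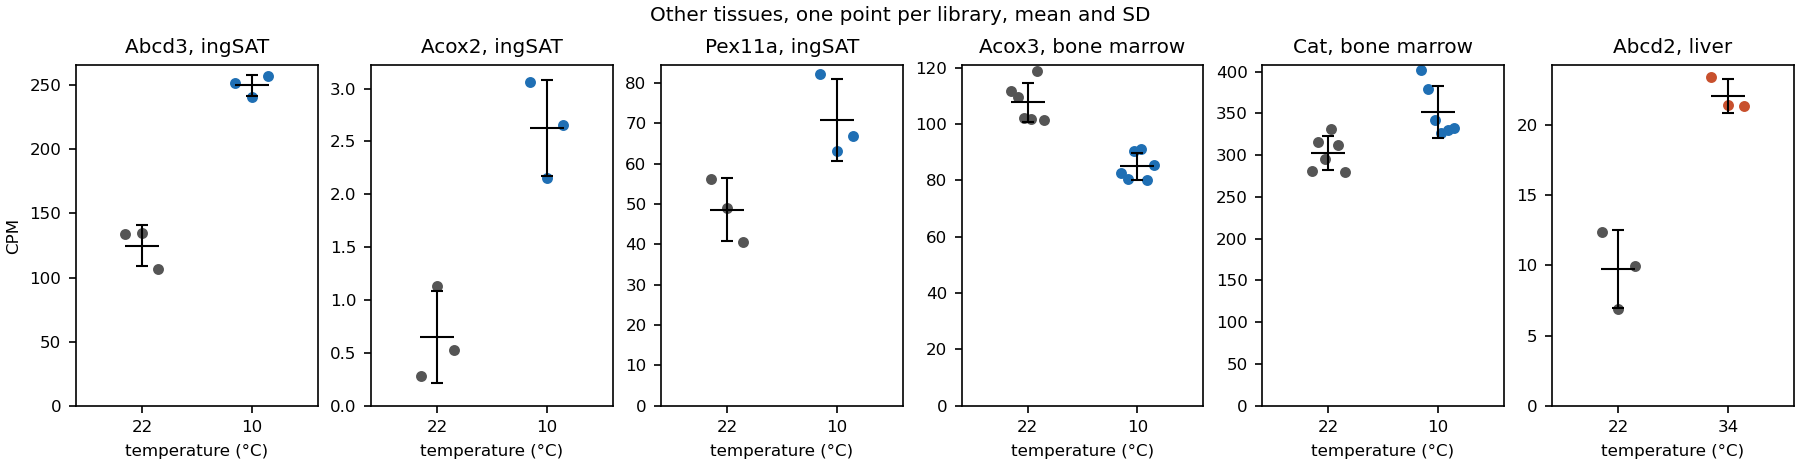
CPM of Abcd3, Acox2 and Pex11a in ingSAT, of Acox3 and Cat in bone marrow and of Abcd2 in liver, with one point per library, a bar at the mean and whiskers of 1 SD. Of the 6 panels, Acox2 and Pex11a in ingSAT did not pass the test, and Cat in bone marrow is the panel whose groups overlap.

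The brain at 10 °C turned on 1 control. The 22 °C library of replicate 2, the one with hepatocyte markers, read 218 CPM of Acox2, 390 CPM of Ehhadh, 2718 CPM of Cat and 881 CPM of Abcd3. The other brain libraries read 0.342 to 0.581 CPM of Acox2, 4.21 to 6.60 CPM of Ehhadh, 57.7 to 66.5 CPM of Cat and 105 to 123 CPM of Abcd3. With all libraries the log2 fold changes reached -7.23 for Acox2 and -4.81 for Ehhadh (adjusted p = 0.706 for both), with 0% of 14423 genes called, 560 at an unadjusted p under 0.05, 5 called by DESeq2 and 0 by the exact test. Without that library the 7 genes that could be tested lay between -0.18 for Ehhadh and -0.01 for Pex11a, none of them called, where 17 of 13976 genes were. At 34 °C, brain without hypothalamus gave no call, with 0% of 13978 genes called, 369 at an unadjusted p under 0.05, and 0 by DESeq2 and by the exact test. Abcd2 came to 50.6 ± 3.13 and 45.2 ± 1.95 CPM there, groups without overlap (log2 fold change -0.16, interval -0.31 to -0.01).

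**Figure D4:**
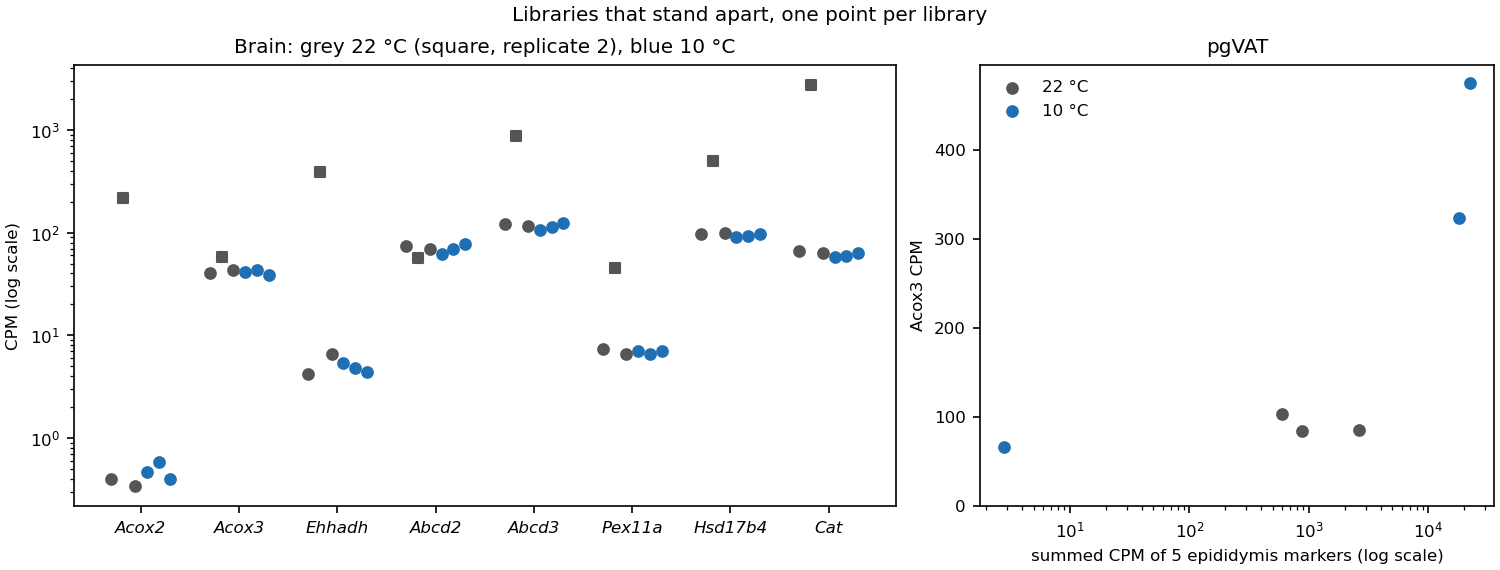
Left, CPM of the 8 genes on a log axis in the 6 brain libraries of the cold experiment, with the 22 °C library of replicate 2 as a square. Right, CPM of Acox3 against the summed CPM of 5 epididymis markers (log axis) in the 6 pgVAT libraries, where the 2 libraries with the highest marker sums, 17990 and 22450 CPM, have the highest Acox3 levels, 324 and 475 CPM.

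Hypothalamus, spinal cord and spleen gave no call among the 7 genes tested in each. In hypothalamus, 0% of 14526 genes were called, 897 had an unadjusted p under 0.05, and DESeq2 called 22 and the exact test 25, none of them members. The log2 fold changes lay between -0.11 for Abcd3 (interval -0.24 to 0.01) and 0.06 for Ehhadh (-0.34 to 0.45). In spinal cord, where 0.00695% of 14382 genes were called, they lay between -0.12 for Ehhadh and 0.07 for Abcd2, and in spleen, with 0.0779% of 14117 genes called, between -0.20 for Cat (-0.49 to 0.08) and 0.07 for Acox3. In these tissues the intervals for Abcd3 and Hsd17b4 ended within 0.24 of 0 on the log2 scale, so that changes as large as those of Abcd3 in iBAT or ingSAT lay outside them.

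In quadriceps the 2 comparisons share their 6 controls. At 10 °C, with 0.338% of 11836 genes called, Ehhadh ranged from 9.31 to 12.7 CPM at 22 °C and read 19.3, 13.3 and 12.5 CPM at 10 °C, a narrow overlap (log2 fold change 0.43, adjusted p = 0.310). Against the 3 controls whose column names match the cold libraries, the same test gave 0.46 for Ehhadh (adjusted p = 0.459). In that fit 3 of 11841 genes were called. Brown adipocyte markers, with 1 of 5 called higher, summed to 3.29 to 25.8 CPM at 22 °C and 46.6 to 189 CPM at 10 °C, and the library with the highest sum was that with the highest Ehhadh. Their part was not tested. At 34 °C, 0% of 11725 genes were called, 629 had an unadjusted p under 0.05, and DESeq2 called 33 and the exact test 11, none of them members. Ehhadh read 14.3, 13.5 and 13.7 CPM at 34 °C against 9.11 to 12.4 CPM (log2 fold change 0.34, adjusted p = 0.796), and Cat 142, 134 and 156 CPM against 97.9 to 133 CPM (0.30, adjusted p = 0.809). Both were without overlap, and against the 3 controls whose column names match the warm libraries the log2 fold changes were 0.32 and 0.19.

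**Figure D5:**
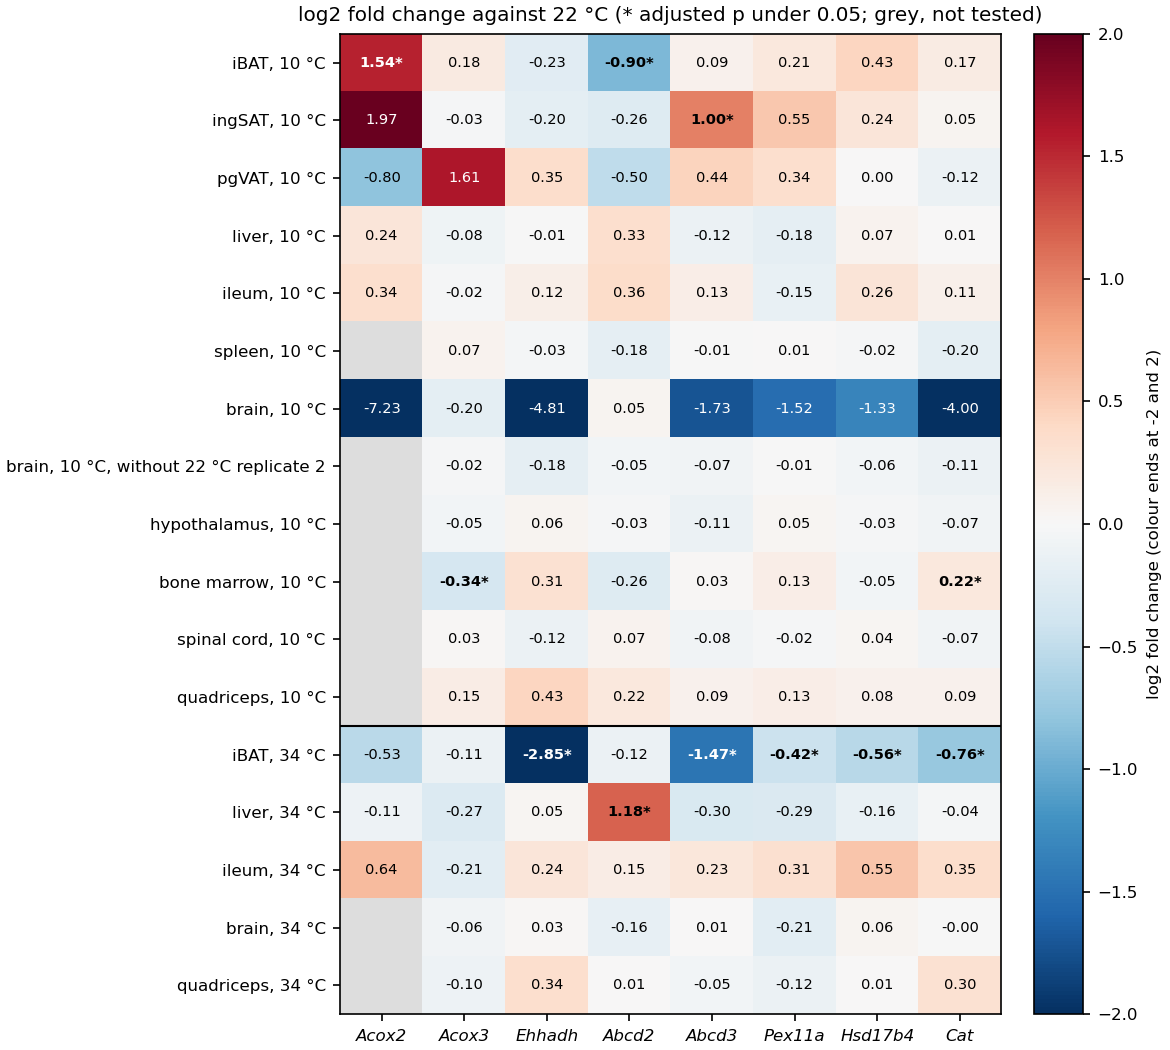
Log2 fold change of the 8 genes (columns) against 22 °C in the 16 comparisons (rows), with the 10 °C comparisons above the line and the 34 °C ones below it, an added row for brain without 1 library, asterisks at adjusted p under 0.05 and grey where a gene was too low to be tested. The 11 asterisks lie in iBAT (7), bone marrow (2), ingSAT (1) and liver at 34 °C (1).

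Whether iBAT responded differently from another tissue was tested as the difference of the log2 fold changes in 1 fit over both tissues, which treated the libraries of different tissues as independent. At 34 °C, 4 genes differed between iBAT and liver, where 9.1% of all genes did. Ehhadh differed by -2.89 (interval -3.64 to -2.14, adjusted p = 0.000816), Abcd3 by -1.15 (adjusted p = 0.00444) and Cat by -0.71 (adjusted p = 0.0157). Abcd2 differed by -1.29 (adjusted p = 0.0190), with its rise in liver as the larger part. Between iBAT and ileum 5 genes differed, where 13.8% of all genes did. These were Ehhadh (-3.13, adjusted p = 0.000446), Abcd3 (-1.73, adjusted p = 0.00227), Cat (-1.14, adjusted p = 0.0126), Pex11a (-0.77, adjusted p = 0.0228) and Hsd17b4 (-1.14, adjusted p = 0.0281), of which the calls for Pex11a and Hsd17b4 held in 8 and 4 of 12 fits with a library left out. Library size scaling moved the median of all genes to 0.33 and 0.32 in these 2 contrasts, and the calls for Cat against liver (adjusted p = 0.0725) and for Pex11a and Hsd17b4 against ileum (0.104 and 0.0558) were then lost.

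At 10 °C, Acox2 differed between iBAT and liver by 1.32 (interval 0.78 to 1.87, adjusted p = 0.00569), with the call kept in all 12 fits with a library left out. Abcd2 differed by -1.23 (adjusted p = 0.0358), a call kept in 5 of the 12, with 8.52% of all genes called. Between iBAT and ingSAT no gene of the 8 passed, where 3.55% of all genes did. Abcd3, which rose in ingSAT, differed by -0.93 with an interval of -1.47 to -0.40 and an adjusted p of 0.0575, against 0.00426 with DESeq2. Acox2 differed by -0.45 with an interval of -1.64 to 0.73. Between iBAT and pgVAT no gene of the 8 passed by the quasi-likelihood test, where 0.0835% of all genes did, and the intervals were wide, such as 0.80 to 3.74 for Acox2 (adjusted p = 0.255).

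The genes whose 22 °C levels followed each member most closely were found over 8 tissues of the cold experiment, with the brain library of replicate 2 left out, by Pearson's r of the mean log2(CPM + 1) among 14309 genes that reached 10 CPM on average in at least 1 tissue. These are descriptions over tissues that share the site and kit. They were Cyp3a11 for Acox2 (r = 0.996), Riok3 for Acox3 (0.976), Idh1 for Ehhadh (0.994), Cdc16 for Abcd2 (0.976), Sar1b for Abcd3 (0.987), Acad11 for Pex11a (0.989), Retsat for Hsd17b4 (0.997) and Aldh2 for Cat (0.994). For 6 of the 8 the closest gene was the same with that library included. Among the members, Pex11a ran closest to Hsd17b4 (0.954) and Ehhadh (0.949) and Cat to Hsd17b4 (0.939), and Abcd2 had negative values with Acox2 (-0.43) and Abcd3 (-0.17).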

How the data were processed

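RNA-seq of 106 mouse libraries was read from 4 deposited tables of raw counts per gene, which the authors made by mapping reads to mm10 with STAR and counting with HTSeq. The submitters' processing notes name STAR 2.5.3a, Picard 1.141 and HTSeq 0.6p1, whereas the study's methods name other versions, and whether counting used strand is not given in the sources used here. A treatment label shared by all samples names 34 °C for every library, and groups were taken from titles and temperature labels instead. Identifiers of the largest table were matched to symbols, which 21583 of 21647 rows received.

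Every comparison used only the libraries of its groups, in R 4.3.3 with edgeR 4.0.16 (TMM, genes with average log2 CPM above 0, quasi-likelihood F-test, two-sided, Benjamini-Hochberg adjustment over all genes tested). A gene was called at an adjusted p under 0.05, and only such genes are said to have risen or fallen. CPM values are scaled by TMM within each comparison, and intervals are 95% intervals of the fit. The 8 members were named in every comparison, and from the other lists at most 3 genes in each direction, those with the largest change among those called. The members and all lists were chosen with earlier results of these data known. Alternatives were edgeR's exact test, DESeq2 1.42.0, scaling by library size, other filters, the limits of the study (fold of 1.5 with unadjusted p), a replicate block, and leaving out each library. The fits were tested on simulated data. Depth was 4262403 to 25964912 counts in the table of 8 tissues, 15591374 to 22139577 in bone marrow, 21953207 to 29029283 in spinal cord and 29545458 to 62880248 in the table of the warm and quadriceps libraries, and counting error is part of the spread in the fits. Warm ingSAT and pgVAT were not analysed here, and 1 gene of the lists is not reported here.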

Additional observations from a re-analysis of the deposited data

Results flagged for a closer look

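The response of iBAT differed from that of another tissue, by a test of the difference itself, in 11 cases. At 10 °C, where 8.52% of all genes differed, the iBAT log2 fold change minus that of liver was 1.32 for Acox2 and -1.23 for Abcd2, the latter past the threshold in 5 of 12 fits with a library left out. At 34 °C, where 9.1% differed, it was -2.89 for Ehhadh, -1.29 for Abcd2, -1.15 for Abcd3 and -0.71 for Cat. Against ileum at 34 °C, where 13.8% differed, it was -3.13 for Ehhadh, -1.73 for Abcd3, -0.77 for Pex11a, -1.14 for Hsd17b4 and -1.14 for Cat. The calls for Pex11a and Hsd17b4 held in 8 and 4 of 12 fits with a library left out, and with library size scaling those 2 and that of Cat against liver were lost.

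A single library stood far from the rest of its group in 3 of the 40 combinations of a gene and a group of 4 to 10 libraries examined by Dixon's criterion, where chance alone gives about 1 in 20. Hsd17b4 read 70.8 CPM in bone marrow at 22 °C in replicate 5, against a group median of 64.7 CPM and a next value of 65.5 CPM. In spinal cord at 10 °C, Acox2 read 1.05 CPM in replicate 3 against a median of 0.278 CPM, and Hsd17b4 read 125 CPM in replicate 4 against a next value of 102 CPM. Abcd3 (91.5 CPM), Cat (95.4 CPM) and Ehhadh (4.45 CPM) had their lowest spinal cord values at 10 °C in that replicate 4.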

How the results depend on the processing

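No called gene changed sign in any of 338 refits, whereas genes without a call changed sign in 109 of 2032. The number of the 8 genes called in ingSAT was 1, and 3 with DESeq2, 2 with the exact test, 2 with library size scaling and 2 with the limits of the study. Those limits gave 1 in pgVAT, 2 in brain at 10 °C, 0 in bone marrow and 3 in iBAT at 34 °C, where library size scaling also gave 3, and 0 in liver at 34 °C. Over all genes tested, the same limits called 16.3% in ingSAT, 7.94% in pgVAT, 2.72% in brain and 1.29% in bone marrow at 10 °C. At 34 °C they called 19.4% in iBAT and 3.38% in liver. The 2 in brain were Acox2 and Ehhadh, in the fit that keeps 22 °C replicate 2, the library with hepatocyte markers. For iBAT against ingSAT the main 0 became 1 with DESeq2, 1 with library size scaling, 1 with edgeR's expression filter and 2 with the limits of the study, which gave 1 against pgVAT. Library size scaling also called Acox3 in the contrasts of iBAT with liver (0.50) and ileum (0.40) at 34 °C. Leaving out 1 library gave 1 to 4 in bone marrow, 0 to 1 in ingSAT, pgVAT and liver at 34 °C, 2 to 3 in iBAT at 10 °C and 4 to 5 at 34 °C. It gave 1 to 2 against liver at 10 °C, 4 to 5 against liver and 3 to 5 against ileum at 34 °C, and 0 to 1 against ingSAT and pgVAT. The 4 in bone marrow came without 22 °C replicate 3, where Abcd2 (adjusted p = 0.00537) and Ehhadh (0.0427) passed as well. The 1 for iBAT against ingSAT came without 22 °C replicate 3 of ingSAT (Abcd3, 0.0396), and the 1 against pgVAT without 10 °C replicate 2 of pgVAT (Acox3, 0.00432). The causes were not tested.

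Over all genes, DESeq2 and the exact test called 530 and 455 in liver at 10 °C against 0, 566 and 331 in ileum against 9, 55 and 51 in spleen against 11, 17 and 12 in spinal cord against 1, 311 and 202 in quadriceps at 10 °C against 40, and 286 and 224 in liver at 34 °C against 43. In ingSAT the counts were 2270 and 1855 against 1050.

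Same-numbered libraries of the cold experiment did not deviate together, with correlations from -0.69 to 0.43 and no tissue in which every pair passed 0.1. A replicate block left 1 gene called in bone marrow, where Cat had an adjusted p of 0.0628, and 2 in iBAT and 1 in ingSAT as before. The split of the quadriceps controls by labelled number was not run, because the labels could not be matched to columns, and the split by column names was chosen after seeing the data.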
